A study of Mus musculus with 33 samples.

Results

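Transcription factor genes enriched in hepatocytes were followed across 33 mouse liver RNA-seq libraries: Hnf4a, Cebpa, Cebpb, Cebpd, Foxa1, Foxa2, Foxa3, Nr1i2 and Nr1i3. These 9 members were chosen by symbol, all 9 were in the table of 19169 genes, and all 9 passed the filter on low counts that left 14934 genes for testing. The libraries were poly(A)-selected RNA from fresh frozen liver in 4 groups. KI ASK1i livers (n = 10) came from mice with the tamoxifen-inducible mutant allele Nlrp3A350V/+CreT, called knock-in (KI), fed for 6 weeks with a diet holding the ASK1 kinase inhibitor GS-444217. KI control livers (n = 5) came from mice with the same allele on control chow with placebo. WT ASK1i livers (n = 8) came from wild-type (WT) mice on the inhibitor diet, and WT control livers (n = 10) from wild-type mice on control chow with placebo. Each diet lasted 6 weeks. By the labels, 5 KI ASK1i libraries were female and 5 male, and 1 KI control library was female and 4 male. Among WT libraries, 4 WT ASK1i were female and 4 male, and 7 WT control were female and 3 male. On control chow the KI livers were thus mostly male and the WT livers mostly female. Nothing on age, strain, the promoter that drives Cre, tamoxifen in WT mice or whether each library is a separate mouse is stated in the sources used here, and the p-values therefore cover the spread of these libraries, which may be technical. The design asks what the inflammasome mutation does to the liver and whether ASK1 inhibition changes it.

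Hepatocyte identity is held by a small network of DNA-binding proteins that support each other's expression. HNF4A is a nuclear receptor that keeps lipid, bile acid and urea cycle genes on. The C/EBP proteins are basic leucine zipper factors: C/EBPα drives the metabolic programme of resting hepatocytes, and C/EBPβ and C/EBPδ are induced in the acute-phase response to inflammatory cytokines. The FOXA proteins are forkhead factors that open chromatin at liver genes. Nr1i2 encodes PXR and Nr1i3 encodes CAR, nuclear receptors that sense drugs and bile acids and pair with RXR to induce cytochrome P450 genes. NLRP3 is the sensor of an inflammasome that matures interleukin-1β.

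Total counts per library were 32245900 to 38393474 in KI ASK1i livers, 33754743 to 38584259 in KI control livers, 30212449 to 40008114 in WT ASK1i livers and 28099685 to 33572199 in WT control livers. Levels are given as CPM, counts-per-million of a library's normalised total. Nlrp3 RNA, which does not show which allele it came from, was at 2.10 to 11.0 CPM in KI ASK1i and 7.87 to 15.6 CPM in KI control livers, against 2.38 to 3.88 CPM in WT ASK1i and 1.62 to 4.96 CPM in WT control livers. The library labelled KI ASK1i replicate 5 had the lowest of these KI values and stood apart from the other KI libraries: on the first principal component, which held 62.2% of the variance, it lay at -59.2, within the WT range of -74.1 to -45.9, whereas the other KI libraries lay at 54.8 to 103. It is kept in its labelled group, and some results of the members are also given without it. Marker sums, gene lists and correlations include it. No member had a median level near 0 in any group. Counts ranged from 37 for Cebpd in its lowest library to 33804 for Hnf4a in its highest.

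The promoters of 2 pairs of relatives are shown because the members of each pair differed in direction between KI and WT livers, as described below. They are RefSeq windows of build GRCm38.p6, each 300 bases long, running 5′ to 3′ along the gene's strand from 250 bases before to 50 bases after the annotated start. Capitals mark the single match found to any of the 6 motifs searched on both strands.
Foxa3, chr7:19023490-19023789, minus strand: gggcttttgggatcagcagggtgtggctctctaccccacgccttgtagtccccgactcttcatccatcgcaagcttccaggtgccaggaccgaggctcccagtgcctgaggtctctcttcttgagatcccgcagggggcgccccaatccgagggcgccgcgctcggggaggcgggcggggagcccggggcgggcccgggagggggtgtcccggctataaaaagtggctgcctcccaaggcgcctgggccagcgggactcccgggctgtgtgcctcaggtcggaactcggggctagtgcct
Foxa1, chr12:57546062-57546361, minus strand: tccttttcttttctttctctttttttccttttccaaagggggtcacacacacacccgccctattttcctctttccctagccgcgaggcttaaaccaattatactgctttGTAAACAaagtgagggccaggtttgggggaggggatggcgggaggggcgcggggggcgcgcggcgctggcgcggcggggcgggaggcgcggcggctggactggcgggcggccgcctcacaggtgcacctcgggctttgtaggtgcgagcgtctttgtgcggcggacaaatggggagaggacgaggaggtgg
Cebpb, chr2:167688665-167688964, plus strand: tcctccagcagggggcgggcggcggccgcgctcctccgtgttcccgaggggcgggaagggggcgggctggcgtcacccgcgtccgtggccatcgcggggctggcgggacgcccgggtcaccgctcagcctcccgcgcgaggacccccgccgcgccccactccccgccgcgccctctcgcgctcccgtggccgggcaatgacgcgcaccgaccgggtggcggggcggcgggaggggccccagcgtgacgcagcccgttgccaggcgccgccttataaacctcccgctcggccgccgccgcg
Cebpa, chr7:35119043-35119342, plus strand: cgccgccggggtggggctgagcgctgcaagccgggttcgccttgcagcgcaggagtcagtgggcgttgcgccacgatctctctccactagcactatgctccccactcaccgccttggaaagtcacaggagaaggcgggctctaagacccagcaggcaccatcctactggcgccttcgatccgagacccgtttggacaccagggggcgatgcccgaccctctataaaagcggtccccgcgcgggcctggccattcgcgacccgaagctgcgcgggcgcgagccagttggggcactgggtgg
The match is GTAAACA, the forkhead motif TGTTTAC read on the opposite strand, and it lies 141 bases before the start of Foxa1. Of 32851 mouse promoter windows, 3.65% hold that motif. The other motifs searched were TTGCNNAA for C/EBP (in 10.8% of all windows), CAAAGTCC for HNF4A (1.42%), the nuclear receptor half-site AGGTCA (16.3%), the NF-kB motif (1.47%) and TTCNNNGAA for STAT (8.30%). None of these letters occurred in the 11 windows of the 8 members with an entry; Cebpd had no entry. The sequences differ in base composition: 80.7% of the Cebpb window is G or C, with 50 CG dinucleotides, against 69.0% and 22 for Foxa3, 67.3% and 29 for Cebpa and 62.3% and 26 for Foxa1. The median of all windows was 52.7% and 7 CG dinucleotides. A motif match describes letters in a window and not binding, and no relation between these sequences and the levels was tested.

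On both diets the KI livers had more Cebpd and Foxa3 RNA and less Cebpa, Foxa1, Nr1i2 and Nr1i3 RNA than the WT livers. Cebpb was called higher on the inhibitor diet, Hnf4a was called lower on control chow, and Foxa2 passed the test in neither comparison. For the difference between the genotype effects of the 2 diets, 0 of 9 members were called. By edgeR's quasi-likelihood test with Benjamini-Hochberg adjustment over all genes and a threshold of 0.05, 7 of 9 members were called between KI control and WT control livers, 2 higher and 5 lower, where 56.7% of all genes tested were called, 27.8% higher and 28.9% lower. Between KI ASK1i and WT ASK1i livers 7 of 9 were called, 3 higher and 4 lower, where 59.1% of all genes were called, 30.3% higher and 28.8% lower. With so many genes called, a count of members adds little, and the sizes and directions below carry the description. The median log2 fold change of the 9 members was -0.42 on control chow and -0.29 on the inhibitor diet, against -0.03 and 0.01 over all genes. Without the library labelled KI ASK1i replicate 5, 7 members were called in each comparison, where 59.8% and 63.2% of all genes were called. From male libraries alone 5 members were called on control chow and 6 on the inhibitor diet, where 41.9% and 48.9% of all genes were called. From female libraries alone 4 and 6 were called, where 23.8% and 36.9% of all genes were, but on control chow that comparison rests on 1 KI control library and says little about single members. From libraries with numbered titles alone, without those marked P, 4 and 5 were called, where 43.7% and 47.2% of all genes were.

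**Figure D1:**
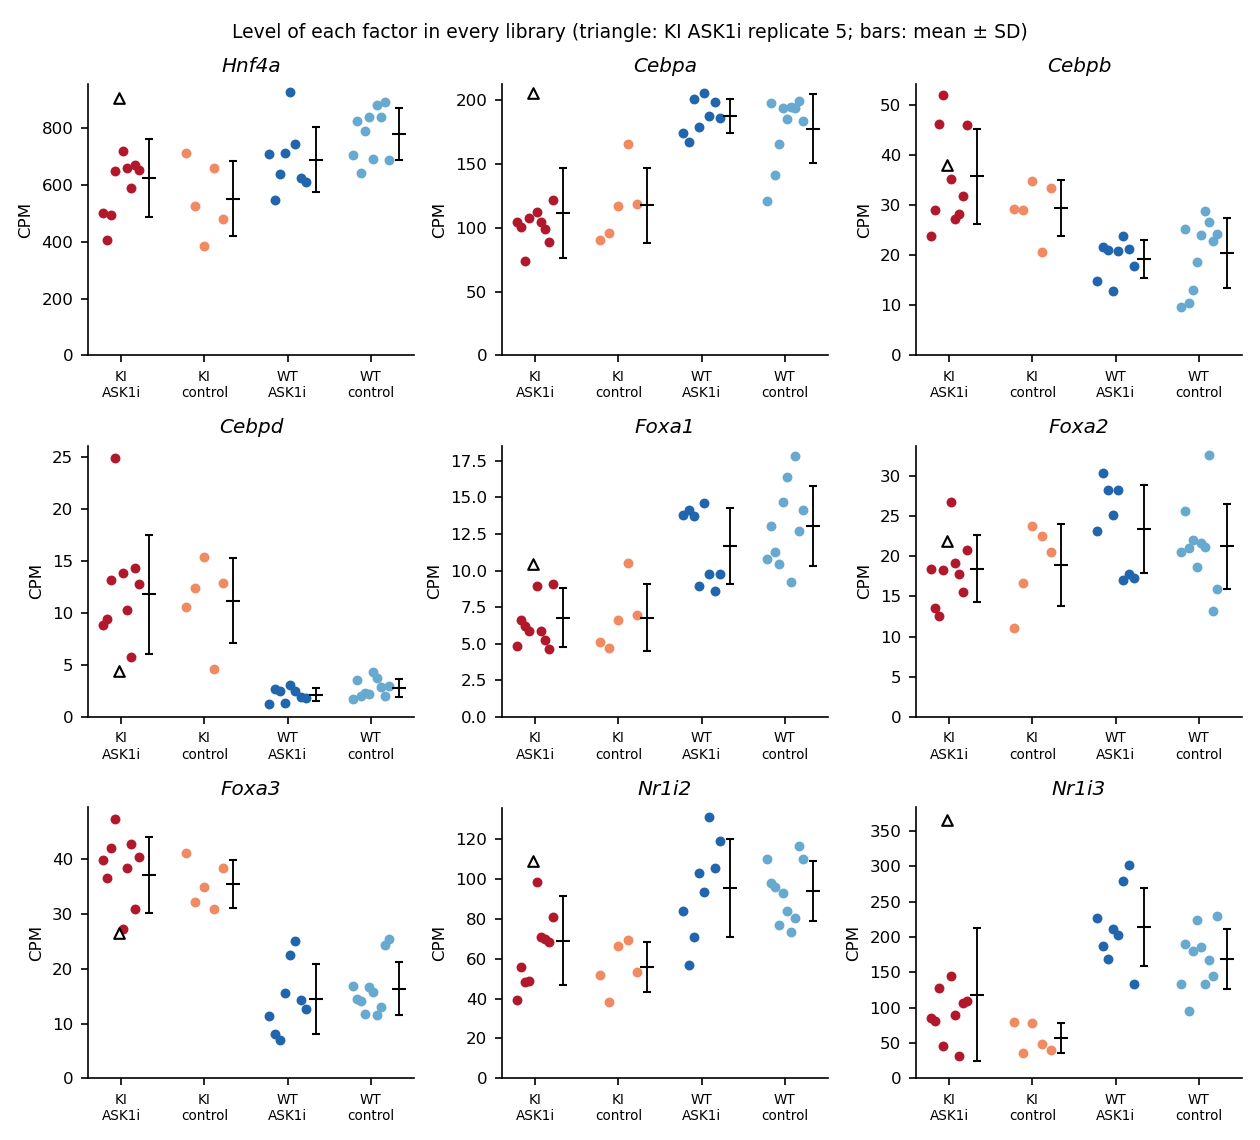
Level of each of the 9 factors (CPM, linear axis from 0) in every library of the 4 groups, with the mean and SD of each group beside its points. Cebpd and Foxa3 sit higher in both KI groups than in both WT groups, Cebpa, Foxa1 and Nr1i3 mostly lower, and the open triangle, the library labelled KI ASK1i replicate 5, sits at or above the top of the KI points for Hnf4a, Cebpa, Nr1i2 and Nr1i3.

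Hnf4a (mm10, chr2:163506938-163572907, plus strand) encodes the nuclear receptor HNF4A. It had 712.2, 525, 386, 661 and 480.0 CPM in the 5 KI control livers, against a lowest, median and highest value of 643, 809 and 893 CPM in WT control livers. In KI ASK1i livers these were 406, 652 and 906 CPM, against 549, 675 and 928 CPM in WT ASK1i livers. The groups overlapped on both diets: 3 of 5 KI control libraries lay below every WT control library, and 3 of 10 KI ASK1i libraries below every WT ASK1i library. On control chow Hnf4a fell, with a log2 fold change of -0.42 ± 0.15 (SE, adjusted p = 0.0167). On the inhibitor diet the difference was -0.14 ± 0.12 (adjusted p = 0.344). The difference between the genotype effects of the 2 diets was itself not called (interaction 0.29 ± 0.20, 95% interval -0.11 to 0.68, adjusted p = 0.704). The call on control chow is narrow. It was lost from numbered titles alone (-0.24, adjusted p = 0.277). It was also lost without KI control replicate 3, KI control replicate 1P or WT control replicate 1P, where the log2 fold change was no closer to 0 than -0.33 and the adjusted p no higher than 0.0637. An RNA from the opposite strand, Hnf4aos, overlaps 34784 bases of the gene's span and averaged 0.79 CPM in KI control and 3.50 CPM in WT control livers. Counts of a gene and of its opposite-strand neighbour can be told apart only if the counting used strand, which is not stated. The kit was strand-specific.

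Cebpa (chr7:35119293-35121931, plus strand), the C/EBP of resting hepatocytes, had 90.5, 95.7, 117, 166 and 118 CPM in KI control livers, against a lowest, median and highest value of 121, 189 and 199 CPM in WT control livers. On the inhibitor diet it had 74.0, 104 and 205 CPM in KI ASK1i livers, against 167, 187 and 206 CPM in WT ASK1i livers. All but 1 library of each KI group lay below every WT library of the same diet, and the KI ASK1i exception was the library labelled replicate 5, at 205 CPM. Cebpa fell on both diets, with log2 fold changes of -0.59 ± 0.17 on control chow (SE, adjusted p = 0.00474) and -0.74 ± 0.14 on the inhibitor diet (adjusted p = 3.95e-05). On control chow the call was lost with the L code in place of the title set (-0.62, adjusted p = 0.0546) and from numbered titles alone (-0.46, adjusted p = 0.102). Without the library labelled KI ASK1i replicate 5 the inhibitor-diet value was -0.91 (adjusted p = 1.24e-08).

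Cebpb (chr2:167688915-167690432, plus strand), an acute-phase activator first known for its binding to the interleukin-6 gene, had 29.2, 29.1, 34.8, 20.6 and 33.4 CPM in KI control livers, against 9.73, 23.5 and 28.9 CPM (lowest, median, highest) in WT control livers. The KI ASK1i livers had 23.9, 33.5 and 52.0 CPM, against 12.8, 20.9 and 23.9 CPM in WT ASK1i livers. KI control replicate 4 lay inside the WT control range and the other 4 just above it. On the inhibitor diet 9 of 10 KI libraries lay above every WT library, and Cebpb rose by a log2 fold change of 0.89 ± 0.19 (SE, adjusted p = 0.000245). On control chow the log2 fold change was 0.45 ± 0.23 with a 95% interval of -0.01 to 0.91 and missed the threshold (adjusted p = 0.0874). It passed without covariates in the model (0.53, adjusted p = 0.0356), and it passed without KI control replicate 4 or WT control replicate 7, with a lowest adjusted p of 0.0336. The difference between the genotype effects of the 2 diets was itself not called (interaction 0.44 ± 0.30, 95% interval -0.18 to 1.05, adjusted p = 0.705). Cebpb shares 908 bases with the opposite-strand gene Tmem189, which averaged 12.3 CPM in KI control and 17.0 CPM in WT control livers.

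Cebpd (chr16:15887286-15889545, plus strand), the C/EBP with the lowest level in WT livers and an acute-phase gene itself, showed the largest difference among the 9. The 5 KI control livers had 10.5, 12.4, 15.4, 4.56 and 12.9 CPM, against 1.68, 2.58 and 4.30 CPM (lowest, median, highest) in WT control livers. KI ASK1i livers had 4.45, 11.5 and 24.9 CPM, against 1.27, 2.20 and 3.10 CPM in WT ASK1i livers. The groups did not overlap on either diet, although the lowest KI library of each diet, KI control replicate 4 and the library labelled KI ASK1i replicate 5, lay close to the WT range. Cebpd rose by a log2 fold change of 2.02 ± 0.31 on control chow (SE, adjusted p = 3.18e-06) and by 2.47 ± 0.28 on the inhibitor diet (adjusted p = 2.50e-08). The opposite-strand gene Spidr overlaps 321 bases of Cebpd and averaged 7.45 CPM in KI control and 3.74 CPM in WT control livers, so the part of its reads in that overlap could not be separated here.

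Between KI control and WT control livers 4 of 9 members had groups that did not overlap (Cebpd, Foxa3, Nr1i2 and Nr1i3), where 29.1% of all genes tested did so. Between KI ASK1i and WT ASK1i livers 2 of 9 did (Cebpd and Foxa3), where 6.27% of all genes did so.

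Foxa1 (chr12:57540632-57546121, minus strand) encodes a pioneer factor of early liver development. It had 5.11, 4.68, 6.64, 10.5 and 6.99 CPM in KI control livers, against 9.22, 12.8 and 17.8 CPM (lowest, median, highest) in WT control livers. In KI ASK1i livers it had 4.62, 6.04 and 10.5 CPM, against 8.61, 11.8 and 14.6 CPM in WT ASK1i livers. KI control replicate 4, at 10.5 CPM, lay inside the WT control range and 7 of 10 KI ASK1i libraries lay below every WT ASK1i library. Foxa1 fell on both diets, with log2 fold changes of -1.07 ± 0.20 on control chow (SE, adjusted p = 4.83e-05) and -0.75 ± 0.16 on the inhibitor diet (adjusted p = 0.000184).

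Foxa2 (chr2:148042878-148046969, minus strand), the relative that controls bile acid and lipid genes, had 11.1, 16.7, 23.7, 22.5 and 20.5 CPM in KI control livers, against 13.2, 21.1 and 32.7 CPM (lowest, median, highest) in WT control livers. Among KI ASK1i livers it had 12.6, 18.4 and 26.7 CPM, against 17.1, 24.2 and 30.4 CPM in WT ASK1i livers. The ranges lay over each other on both diets. The log2 fold changes of -0.20 ± 0.19 on control chow (SE, adjusted p = 0.396, 95% interval -0.60 to 0.20) and -0.29 ± 0.16 on the inhibitor diet (adjusted p = 0.120, interval -0.61 to 0.04) were not called, and the intervals do not exclude a moderate fall.

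Foxa3 (chr7:19013282-19023539, minus strand), a FOXA factor known in mice for maintaining the glucose transporter gene Slc2a2, moved the other way from Foxa1. It had 41.2, 32.1, 34.9, 30.8 and 38.4 CPM in KI control livers, against 11.5, 15.1 and 25.5 CPM (lowest, median, highest) in WT control livers. In KI ASK1i livers it had 26.5, 39.1 and 47.4 CPM, against 7.05, 13.4 and 25.1 CPM in WT ASK1i livers. Every KI library lay above every WT library, and the library labelled KI ASK1i replicate 5 was the lowest of the KI libraries. Foxa3 rose by a log2 fold change of 1.12 ± 0.22 on control chow (SE, adjusted p = 8.81e-05) and by 1.31 ± 0.20 on the inhibitor diet (adjusted p = 1.64e-06).

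From male libraries alone the control-chow value of Foxa3 was 0.93 and missed the threshold (adjusted p = 0.0592). Foxa3 also varied among WT livers by an L code that stands in the library titles and whose meaning is not stated. WT libraries with code L7 or L8 had 22.5 to 25.5 CPM and those with codes L1, L5 or L6 had 7.05 to 16.9 CPM. All but 1 of the KI control libraries carry L7 and no code holds both KI control and WT control libraries, so on control chow code and genotype cannot be told apart within a code. With the L code in the model in place of the title set, the control-chow log2 fold change of Foxa3 was 0.46 (adjusted p = 0.145), while the inhibitor-diet value was 1.06 (adjusted p = 1.87e-05). Within L1, the 4 KI ASK1i libraries had 30.9 to 42.8 CPM, against 12.7 and 14.2 CPM in the 2 WT ASK1i libraries. Within L7, the other code with both genotypes on this diet, 1 KI ASK1i library had 39.9 CPM, against 22.5 and 25.1 CPM in 2 WT ASK1i libraries, a smaller gap. In the same L1 libraries Cebpd was at 5.78 to 14.4 CPM in KI ASK1i against 1.82 and 1.92 CPM in WT ASK1i livers, and Cebpa at 88.7 to 122 CPM against 186 and 199 CPM. Within L1 Nr1i3 was at 31.4 to 109 CPM in KI ASK1i against 133 and 302 CPM in WT ASK1i livers, and Foxa1 at 4.62 to 9.07 CPM against 8.61 and 9.79 CPM, so Foxa1 overlapped there. With the L code in the model on control chow, Cebpd, Foxa1, Nr1i2, Nr1i3 and Hnf4a passed the threshold and Cebpa and Foxa3 did not, where 34.2% of all genes were called. On the inhibitor diet 7 members were called with the L code, where 55.8% of all genes were.

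**Figure D2:**
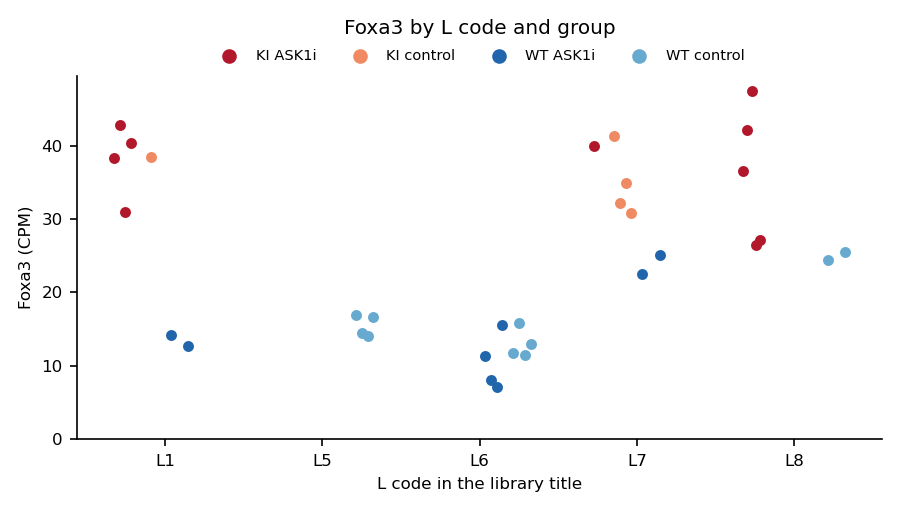
Foxa3 level (CPM, linear axis from 0) in each library, by the L code in its title and coloured by group. WT libraries of L7 and L8 (22.5 to 25.5 CPM) sit above WT libraries of the other codes (7.05 to 16.9 CPM) and below the KI libraries, whose lowest value is 26.5 CPM.

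Nr1i2 (chr16:38248349-38294824, minus strand) encodes PXR, the receptor for steroids and many drugs. It had 51.6, 38.4, 66.4, 69.6 and 53.2 CPM in KI control livers, against 73.2, 94.6 and 116 CPM (lowest, median, highest) in WT control livers. With the inhibitor diet it had 39.3, 69.0 and 109 CPM in KI ASK1i livers, against 56.9, 98.2 and 131 CPM in WT ASK1i livers. No KI control library reached the WT control range, whereas only 4 of 10 KI ASK1i libraries lay below every WT ASK1i library. Nr1i2 fell, with log2 fold changes of -0.70 ± 0.21 on control chow (SE, adjusted p = 0.00513) and -0.49 ± 0.17 on the inhibitor diet (adjusted p = 0.0123). The calls were lost from numbered titles alone (-0.50, adjusted p = 0.139, on control chow and -0.43, adjusted p = 0.120, on the inhibitor diet) and from male libraries alone (-0.69, adjusted p = 0.119, and -0.45, adjusted p = 0.196). Without the library labelled KI ASK1i replicate 5, at 109 CPM, the inhibitor-diet value was -0.62 (adjusted p = 0.000964).

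Nr1i3 (chr1:171213970-171219193, plus strand) encodes CAR, the phenobarbital-responsive receptor. KI control livers had 80.1, 36.1, 78.3, 48.2 and 40.7 CPM, against 95.6, 174 and 229 CPM (lowest, median, highest) in WT control livers. KI ASK1i livers had 31.4, 98.2 and 366 CPM, against 133, 207 and 302 CPM in WT ASK1i livers. The highest value of all 33 libraries was that of the library labelled KI ASK1i replicate 5, and the next highest KI ASK1i library had 144 CPM. Nr1i3 fell on both diets. Its log2 fold change was -1.56 ± 0.38 on control chow (SE, adjusted p = 0.000876), the largest fall of the 9, and -0.84 ± 0.30 on the inhibitor diet (adjusted p = 0.0151). Without that library the inhibitor-diet value was -1.25 (adjusted p = 4.70e-05). From numbered titles alone it was -0.63 and missed the threshold (adjusted p = 0.126). Without WT ASK1i replicate 1P it was -0.68 and missed the threshold (adjusted p = 0.0625). Nr1i3 shares 1391 bases with the opposite-strand gene Tomm40l. That gene averaged 12.5 CPM in KI ASK1i and 8.52 CPM in WT ASK1i livers, and 14.9 CPM in KI control and 11.1 CPM in WT control livers. The part of shared reads in the Nr1i3 values was not tested.

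**Figure D3:**
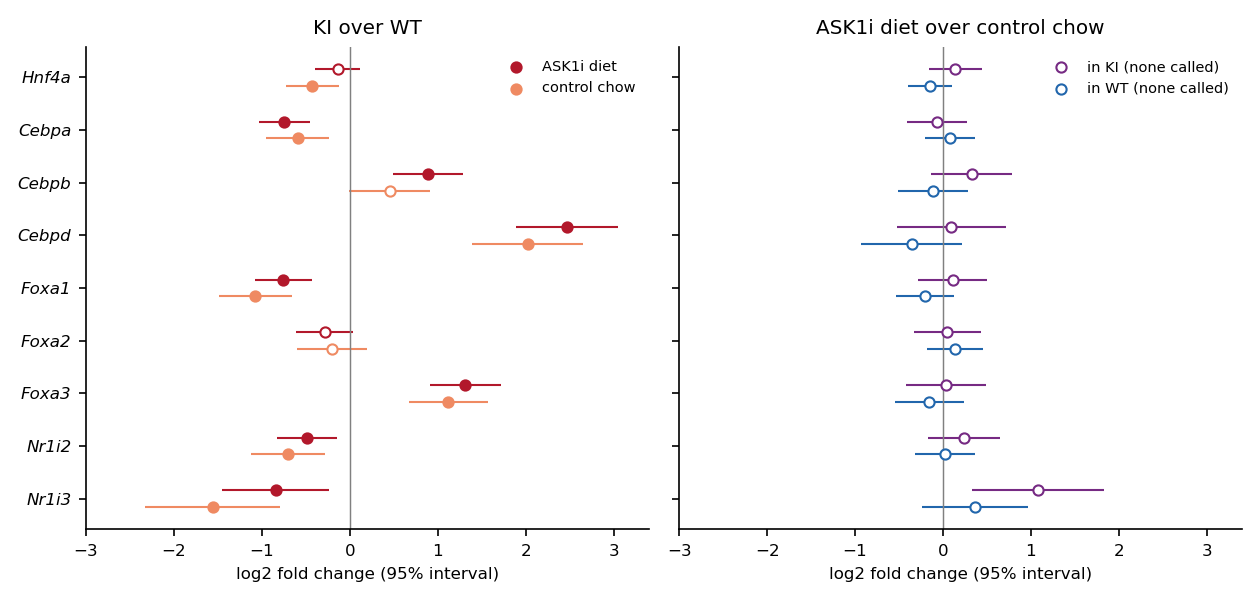
Log2 fold change of each factor with its 95% interval, KI over WT on each diet (left) and inhibitor diet over control chow in each genotype (right); filled points have an adjusted p under 0.05. The left panel runs from -1.56 for Nr1i3 to 2.47 for Cebpd, and no point in the right panel is filled.

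Ratios of 2 members within a library show these opposite movements without reference to the library total; they are a description with no test. The log2 ratio of Cebpd to Cebpa counts had a median of -3.30 (range -5.53 to -2.11) in KI ASK1i and -3.10 (-5.18 to -2.92) in KI control livers, against -6.50 (-7.10 to -5.96) in WT ASK1i and -6.09 (-6.62 to -5.43) in WT control livers. For Foxa3 to Foxa1 the medians were 2.72 (1.34 to 3.05) in KI ASK1i and 2.46 (1.55 to 3.01) in KI control livers, against 0.49 (-0.96 to 1.36) in WT ASK1i and 0.25 (-0.45 to 0.94) in WT control livers. The Foxa3 to Foxa1 ratio of every KI control library exceeded that of every WT control library, and on the inhibitor diet the library labelled KI ASK1i replicate 5, at 1.34, lay inside the WT range. For Cebpb to Cebpa the medians were -1.73 in KI ASK1i and -1.75 in KI control livers, against -3.28 in WT ASK1i and -3.05 in WT control livers. KI control replicate 4, at -3.01, lay within the WT control range.

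**Figure D4:**
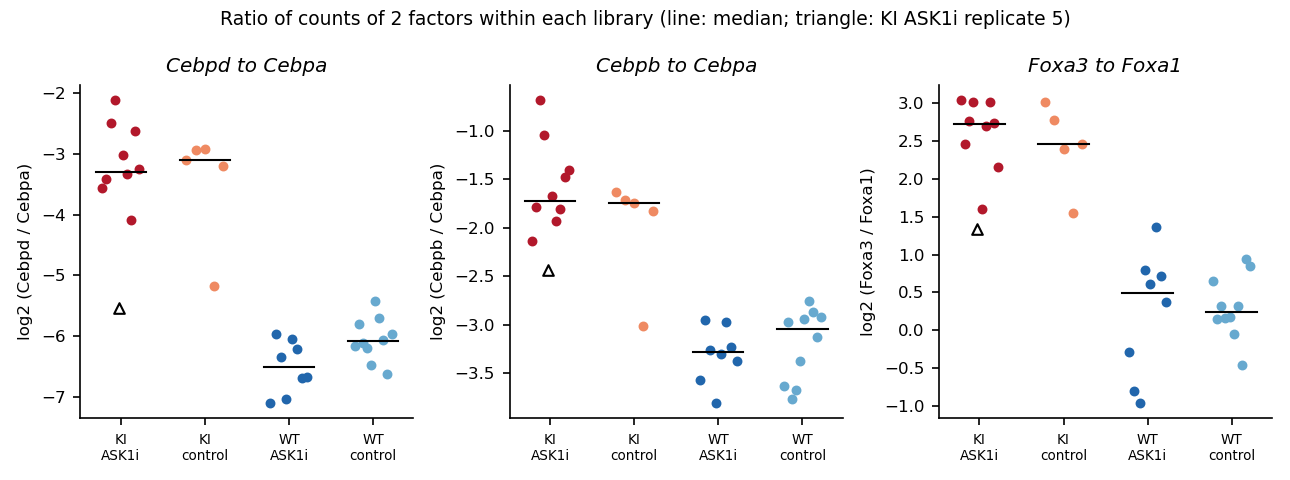
Log2 ratio of the counts of 2 factors within each library, by group, with the group median as a line. In both KI groups the medians sit above the WT medians for all 3 ratios, and the open triangle, the library labelled KI ASK1i replicate 5, is the lowest KI ASK1i point in each panel.

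Levels can be compared between genes only per length, and CPM per kilobase was computed with the span of single-exon genes or the longest coding transcript of GENCODE M21, which may differ from the gene models behind the counts. In WT control livers Hnf4a had a median of 185 CPM per kilobase, followed by Cebpa at 71.8, Nr1i3 at 58.5, Nr1i2 at 37.1, Cebpb at 15.5, Foxa2 at 9.93, Foxa3 at 7.41, Foxa1 at 4.03 and Cebpd at 1.14. In KI control livers Hnf4a was first at 120 CPM per kilobase and Cebpa second at 44.3. Then came Nr1i2 at 20.9, Cebpb at 19.3, Foxa3 at 17.2, Nr1i3 at 16.2, Foxa2 at 9.64, Cebpd at 5.51 and Foxa1 at 2.08 CPM per kilobase. Nr1i3 thus had rank 6 in KI control and rank 3 in WT control livers. In KI control livers the ranges of Nr1i2, Cebpb, Foxa3 and Nr1i3 overlapped, so the order among these 4 is not separated by the spread of the libraries, and Cebpd overlapped with both Foxa2 and Foxa1. In WT control livers Nr1i3 overlapped with both Cebpa and Nr1i2, and Foxa2 with both Cebpb and Foxa3, whereas the ranges of the other neighbours were apart.

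Markers of other cell types moved with genotype in these whole-liver samples, in which fewer cells of a type and less RNA per cell cannot be told apart. The summed level of 10 hepatocyte markers was 88091 to 131867 CPM in KI ASK1i and 86749 to 105708 CPM in KI control livers, against 123444 to 166338 CPM in WT ASK1i and 125929 to 154604 CPM in WT control livers. That of 9 neutrophil markers was 10.7 to 4549 CPM in KI ASK1i and 683 to 3425 CPM in KI control livers, against 4.31 to 11.6 CPM in WT ASK1i and 6.33 to 22.8 CPM in WT control livers. That of 9 monocyte and macrophage markers was 451 to 2631 CPM in KI ASK1i and 1792 to 2257 CPM in KI control livers, against 350 to 489 CPM in WT ASK1i and 288 to 767 CPM in WT control livers. All 9 markers of each myeloid list were called higher in KI livers on both diets. No marker of the hepatocyte and myeloid lists was at 0 in a group. Of 10 hepatocyte markers 7 were called lower and 2 higher on control chow, and 6 lower and 2 higher on the inhibitor diet. The 2 called higher were Trf and Fgb on both diets. On control chow Alb averaged 30636 CPM in KI and 101556 CPM in WT livers, and Trf 41865 and 11560 CPM. The hepatocyte sum thus rests largely on these 2 genes, which moved in opposite directions, and is not a count of hepatocytes. The summed level of 8 stellate and myofibroblast markers was 261 to 443 CPM in KI ASK1i and 373 to 595 CPM in KI control livers, against 259 to 355 CPM in WT ASK1i and 256 to 375 CPM in WT control livers. That of 8 cholangiocyte markers was 19.9 to 258 CPM in KI ASK1i and 62.5 to 117 CPM in KI control livers, against 36.7 to 81.4 CPM in WT ASK1i and 30.0 to 64.2 CPM in WT control livers. Sums of 4 B and plasma cell markers were 1.72 to 6.08 CPM in KI control, against 3.69 to 23.9 CPM in WT control livers, and all 4 were called lower on both diets. Sums of 5 T and NK cell markers were 6.45 to 11.9 CPM in KI control, against 3.50 to 6.34 CPM in WT control livers, and 3 of 5 were called higher there. Cebpb and Cebpd are also expressed in myeloid cells, and the part of all these cells in the members' differences was not tested. In the library labelled KI ASK1i replicate 5, where the neutrophil markers summed to 10.7 CPM and the macrophage markers to 451 CPM, both within the WT ASK1i range, Hnf4a (906 CPM), Cebpa (205 CPM), Foxa1 (10.5 CPM), Foxa2 (22.0 CPM) and Nr1i2 (109 CPM) also lay within the WT ASK1i range. Cebpb (38.0 CPM), Cebpd (4.45 CPM), Foxa3 (26.5 CPM) and Nr1i3 (366 CPM) lay above every WT ASK1i library there.

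Other liver transcription factors moved in both directions. Of 22 other liver transcription factors, 2 were called higher and 8 lower in KI control against WT control livers (median log2 fold change -0.40), and 1 higher and 8 lower in KI ASK1i against WT ASK1i livers (median -0.27). These shares lie below the 56.7% and 59.1% of all genes called, so the counts show nothing particular to these factors. Ppara, the fatty acid sensor of the fasted liver, fell by 1.38 ± 0.26 on the log2 scale on control chow (SE, adjusted p = 5.81e-05) to a mean of 100.5 CPM in KI control, against 282 CPM in WT control livers. Tbx3, a factor of early liver growth, fell by 1.66 ± 0.31 (adjusted p = 4.87e-05). Gata6 was the gene called higher on both diets, by 0.59 and 0.72. Esr1, named after its value was seen, was the other gene called higher on control chow.

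The shares of related factors called lay below, at or above the 56.7% of all genes called on control chow and the 59.1% on the inhibitor diet. Of 9 other C/EBP and PAR bZIP factors, 2 were called lower and 0 higher on each diet. Hlf, a circadian PAR factor, had log2 fold changes of -0.84 on control chow and -0.70 on the inhibitor diet, and Atf5, a stress-response factor, of -1.26 and -0.53. Cebpg, the relative without an activation domain, had log2 fold changes of 0.05 and 0.16 and was not called. Of 16 tested forkhead genes outside the FOXA group, 2 were called higher and 5 lower on each diet. Foxm1, which drives the cell cycle in regenerating liver, rose by 2.94 ± 0.49 on control chow (SE, adjusted p = 1.05e-05) and Foxp4 by 0.70 ± 0.10. Foxk1 and Foxo4 were lower on control chow, with log2 fold changes of -0.55 ± 0.10 and -0.69 ± 0.13. Of 14 partners and cofactors, 1 was called higher and 7 lower on control chow, and 3 higher and 7 lower on the inhibitor diet. Rxra, the obligate partner of PXR and CAR, fell by 0.47 ± 0.09 on control chow (adjusted p = 7.83e-05) and had a mean of 300.3 CPM in KI control, against 419 CPM in WT control livers. The coactivator Ppargc1b fell by 1.23 ± 0.29, and the coactivator gene Ep300 was called higher on both diets, by 0.20 and 0.33.

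Genes that code for the inflammatory inputs to the C/EBP factors, and acute-phase genes, were mostly higher in KI livers. Of 14 genes of interleukin-6, interleukin-1 and TNF signalling, 11 were called higher and 1 lower on control chow (median log2 fold change 1.46), and 13 higher and 1 lower on the inhibitor diet (median 1.71). Over all genes 27.8% were called higher and 28.9% lower on control chow, and 30.3% higher and 28.8% lower on the inhibitor diet. Osmr, the oncostatin M receptor, averaged 26.5 CPM in KI control, against 6.60 CPM in WT control livers, and Socs3, the feedback inhibitor of this pathway, averaged 56.4 CPM in KI ASK1i, against 5.79 CPM in WT ASK1i livers. The gene called lower on both diets, named after its values were seen, was Il6ra, the ligand-binding interleukin-6 receptor, at -0.64 and -0.59. Of 17 acute-phase genes, 15 were called higher and 0 lower on control chow (median 2.29), and 16 higher and 0 lower on the inhibitor diet (median 2.75). Saa2, a serum amyloid A gene whose reads can be shared with its near-identical relatives, rose by 8.70 ± 0.68 on control chow (SE, adjusted p = 5.58e-10), and Serpina3n by 3.18 ± 0.29. Both lists were chosen with these results known, so their direction is no independent evidence.

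Genes known as targets of the members were mostly lower; over all genes 28.9% were called lower on control chow and 28.8% on the inhibitor diet. Of 18 HNF4A targets, 14 were called lower and 0 higher on control chow (median log2 fold change -0.97), and 15 lower and 1 higher, Apoc2 (named after its value was seen), on the inhibitor diet (median -0.78). Apoa2 averaged 1375 CPM in KI control, against 4625 CPM in WT control livers, with a log2 fold change of -1.66 ± 0.23, beside one of -0.42 for Hnf4a itself. Of 8 metabolic targets of C/EBPα, 6 were called lower and 1 higher on control chow, and 5 lower and 2 higher on the inhibitor diet. Cps1, the first enzyme of the urea cycle, had a log2 fold change of -1.08 ± 0.21 on control chow and Alb one of -1.54 ± 0.20, whereas Hamp, named after its value was seen, which encodes the iron hormone hepcidin, was the gene called higher on control chow, by 0.82. Of 8 FOXA targets, 5 were called lower and 1 higher on control chow, and 5 lower and 2 higher on the inhibitor diet. Slc2a2, the hepatocyte glucose transporter, fell by 3.36 ± 0.83 on control chow, and Igfbp1, named after its values were seen, was called higher on both diets, by 2.01 and 1.79. The HNF4A, C/EBPα and FOXA lists share Alb, Ttr, Tat, G6pc and Pck1 in part, so their counts are not separate. These lists and the CAR and PXR list below were also chosen with earlier results of these data known. Their direction is no independent evidence.

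Of 21 CAR and PXR targets, 15 were called lower and 0 higher on control chow (median log2 fold change -1.15), and 16 lower and 0 higher on the inhibitor diet (median -1.31). Over all genes 28.9% were called lower on control chow and 28.8% on the inhibitor diet. Cyp2c37 averaged 38.5 CPM in KI control, against 465.9 CPM in WT control livers, with a log2 fold change of -3.46 ± 0.63 (SE, adjusted p = 3.77e-05). The bilirubin-conjugating enzyme gene Ugt1a1 averaged 436 CPM in KI control, against 1027 CPM in WT control livers. The bile acid exporter gene Abcc3 had log2 fold changes of -0.76 ± 0.11 on control chow and -0.60 ± 0.09 on the inhibitor diet. Alas1 and Por, which supply haem and electrons to cytochrome P450 enzymes, were called in neither comparison, with log2 fold changes of 0.08 and -0.08 on control chow. Cyp2b, Cyp2c and Cyp3a genes have near-identical copies among which shared reads are divided, so single values are uncertain.

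**Figure D5:**
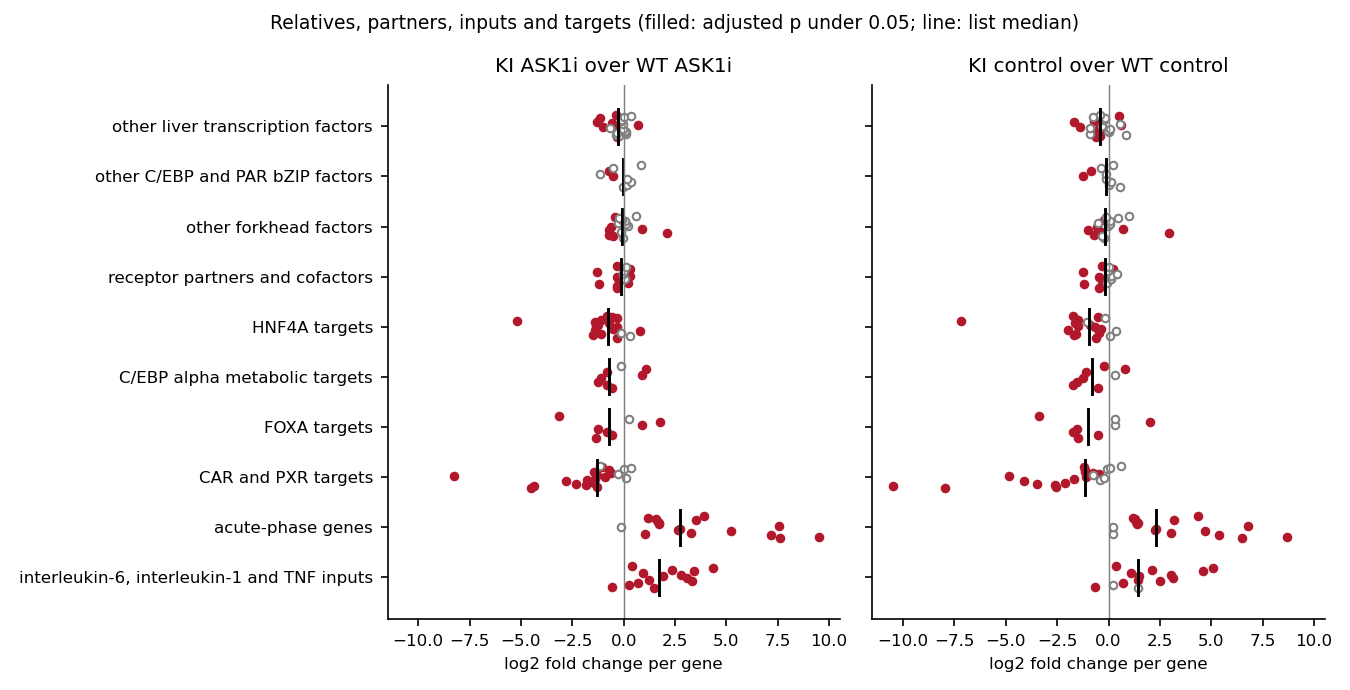
Log2 fold change of each tested gene of 10 related lists, KI ASK1i over WT ASK1i (left) and KI control over WT control (right), with the list median as a line; filled points have an adjusted p under 0.05. The medians of acute-phase genes and cytokine inputs lie right of 0, at 1.46 to 2.75, and those of the 4 target lists left of 0, at -1.31 to -0.71.

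The inhibitor diet gave no called difference in any member in either genotype. By edgeR's quasi-likelihood test, 0 of 9 members were called between KI ASK1i and KI control livers, where 0.0536% of all genes were called, and 1 of 9 had an unadjusted p under 0.05, as did 1539 of all 14934 genes. Between WT ASK1i and WT control livers 0 of 9 were called, where 1.4% of all genes were called. An unadjusted p under 0.05 was found for 0 of 9 members and 2079 of 14934 genes. The test of whether the inhibitor's effect differed between genotypes called 0 of 9 members and 0 of 14934 genes, of which 1251 had an unadjusted p under 0.05. DESeq2 and limma-voom also called 0 members in all 3 comparisons, and called 16 and 2 genes for the difference between genotypes. Of the 139 genes in the related lists above, edgeR called 0 in each inhibitor comparison. An unadjusted p under 0.05 was found for 21 of them in KI and 12 in WT livers, beside 1539 and 2079 of the 14934 genes. Of these genes limma-voom called 0 in either genotype, and DESeq2 called 2 in KI and 1 in WT livers. These were Cyp2b13 and Cyp2b9, higher in KI ASK1i than in KI control livers by 6.38 ± 1.37 and 4.16 ± 1.05 on the log2 scale (SE, DESeq2 adjusted p = 0.00285 and 0.0336), and Cyp3a41a, higher in WT ASK1i than in WT control livers by 4.02 ± 1.05 (adjusted p = 0.0111). They were named after their values were seen. Sexes were unequal, with 5 female and 5 male KI ASK1i against 1 female and 4 male KI control libraries. In WT livers 4 female and 4 male WT ASK1i stood against 7 female and 3 male WT control libraries. Sex is an additive term of the model, and its part in these values was not tested. Cyp3a41a averaged 1957 CPM in WT ASK1i and 1373 CPM in WT control livers, and 1 of 8 WT ASK1i libraries lay above every WT control library.

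Nr1i3 was the member with an unadjusted p under 0.05, a share of members near that of all genes. It averaged 119 ± 93.5 CPM in KI ASK1i livers (SD, n = 10), against 56.7 ± 21.0 CPM in KI control livers (SD, n = 5), and the ranges overlapped. Its log2 fold change was 1.08 ± 0.37 (SE, 95% interval 0.33 to 1.83) with an edgeR p of 0.00612 before and 0.425 after adjustment over all genes. Without the library labelled KI ASK1i replicate 5 its mean was 91.1 ± 36.3 CPM (SD, n = 9) and the log2 fold change 0.71 (adjusted p = 0.504). In WT livers the Nr1i3 difference was 0.36 ± 0.30, and the difference between genotypes was 0.72 ± 0.47 (95% interval -0.24 to 1.67, adjusted p = 0.698). The log2 fold changes of the other 8 members ran from -0.07 for Cebpa to 0.32 for Cebpb in KI livers and from -0.36 for Cebpd to 0.14 for Foxa2 in WT livers. The 95% interval for Cebpa in KI livers was -0.41 to 0.27, that for Hnf4a -0.16 to 0.44 and that for Foxa3 -0.42 to 0.49. These intervals do not show that the diet had no effect.

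After the group mean was subtracted from each gene's log2 CPM, some pairs of members still varied together across the 33 libraries. These correlations are descriptions, and sex, title set, L code and other technical effects that libraries may share were not removed. The library labelled KI ASK1i replicate 5 is included, and its part in them was not tested. Cebpb and Cebpd had a Pearson r of 0.65 (Spearman rho 0.67), Cebpa and Foxa1 0.61 (0.55), Foxa1 and Foxa2 0.54 (0.55), and Hnf4a and Cebpa 0.49 (0.47). Other pairs ranged more widely, such as Cebpa with Nr1i2 at 0.44, Nr1i2 with Nr1i3 at 0.41 and Cebpd with Nr1i2 at -0.36. Some lay near 0, such as Hnf4a with Foxa3 at 0.07 and Cebpb with Foxa2 at 0.01. The lowest of the 36 pairs was Foxa2 with Foxa3, at -0.51 (-0.51). By the same measure over 11635 genes, the gene most like Nr1i3 was Lims2 (r = 0.81), which dropped to 0.64 when the 2 libraries farthest from the median were left out, and the second was Gsta2, a glutathione transferase gene (0.80, dropping to 0.53). For Cebpb it was Errfi1, an inhibitor of the EGF receptor (0.77, and 0.72 without the 2 libraries). For Cebpa it was Mavs, an antiviral signalling adaptor (0.82 and 0.77), and for Hnf4a Pi4ka (0.74 and 0.71), followed by the prothrombin gene F2 (0.70 and 0.61). The genes most like Foxa1 and Foxa2 were Magi3 (0.78) and Phlda1 (0.72), those most like Foxa3 and Nr1i2 were Synj2 (0.73) and Lrrc28 (0.81), and that most like Cebpd was Gskip (0.64, and 0.50 without the 2 libraries).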

How the data were processed

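Mouse liver RNA was made into 33 libraries with a strand-specific poly(A) kit, per the labels' protocols. The submitters' processing notes name CASAVA 1.8.2, STAR 2.4, RSEM 1.2.14 and the build mm10. They name no gene annotation and no strand setting. The authors deposited RSEM expected counts for each gene without normalisation. In each library 91.8% to 94.0% of these values were whole; RSEM shares out reads that match several genes.

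Expected counts were rounded and fitted in R 4.3.3 with edgeR 4.0.16 (TMM, filterByExpr by group, quasi-likelihood F test, robust=TRUE) in 1 model of group, sex and title set (titles are numbered, some with a P) over all 33 libraries. Of 19169 genes 14934 were tested. P-values were adjusted by Benjamini-Hochberg over all of these in each comparison, two-sided, threshold 0.05. SE is the log2 fold change divided by the root of F, and intervals are 95% from the test's degrees of freedom. The prior count was 0.125 for fold changes and 2 for log2 CPM. Other tools were DESeq2 1.42.0 and limma 3.58.1. The model was tested on simulated data with known fold changes in a small set of genes of the KI control libraries alone. The simulation held no effect of sex, title set or L code and far fewer changed genes than were called here. It therefore does not show how the model performs in these data.

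Groups, sex and library codes came from the labels. Of 128 pairs of libraries within a group, the lowest chi-square per gene was 27.6, so no library was counted as a repeat. Positions are those of the deposited table, counted from 1. Promoters are from RefSeq, matched by symbol for 8 of 9 members. The members, gene lists and tests were chosen with earlier results of these data known. The rule for named genes was all members, Nlrp3, Map3k5 and Alb, up to 4 called genes per list with the smallest p (up to 2 where none was called), and the 2 genes whose pattern is most like that of each member, with a mean of at least 1 CPM. Alternatives were other tools, scalings, filters and covariates, a replicate block, sexes and title sets alone, and each library left out.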

Additional observations from a re-analysis of the deposited data

Results flagged for a closer look

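In 36 combinations of member and group with 4 to 10 libraries, 3 had 1 library far from the others by Dixon's test, which chance gives in about 1 in 20 groups. All 3 were in KI ASK1i livers. Nr1i3 was at 366 CPM in the library labelled KI ASK1i replicate 5, above every other library of the study, and the nearest library of its group had 144 CPM. Cebpa was at 205 CPM in the same library, within the WT ASK1i range, and the nearest library of its group had 122 CPM. Cebpd was at 24.9 CPM in KI ASK1i replicate 4, and the nearest library had 14.4 CPM. Without KI ASK1i replicate 4 the Cebpd log2 fold change between KI ASK1i and WT ASK1i livers was 2.26.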

How the results depend on the processing

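Between KI and WT livers the 7 members called on each diet kept their direction under all alternatives and with each library left out. Members called on control chow were 4 from numbered titles alone. With 1 library left out they ranged from 6 to 8 on control chow and from 6 to 7 on the inhibitor diet. From female libraries alone, with 1 KI control library assumed to vary like the others, Foxa2, not among the 7, had a log2 fold change of -0.93 on control chow. On control chow the calls of Hnf4a, Cebpa and Nr1i2 were lost from numbered titles alone, and Foxa3 (0.93, edgeR adjusted p = 0.0592) and Nr1i2 from male libraries alone. Calls from female libraries alone on control chow rest on 1 KI control library and are not evidence about single genes. On the inhibitor diet Nr1i2 and Nr1i3 were lost from numbered titles alone, Nr1i2 from male and Nr1i3 from female libraries alone. The cause was not tested. As percentages of the genes tested, 56.7% were called on control chow, against 34.2% with the L code in place of the title set, 23.8% from female libraries alone and 49.2% to 59.8% with 1 library left out. On the inhibitor diet 59.1% were called, against 36.9% from female libraries alone and 56.1% to 63.2% with 1 left out. For the inhibitor in KI livers 0.0536% were called, against 0.0268% with RLE size factors, 0.248% with DESeq2, 0.0201% without covariates, 0% with the L code, with the replicate block, from numbered titles, from either sex and from the 2 groups alone, and 0% to 0.094% with 1 left out. In WT livers 1.4% were called, against 2.44% with DESeq2, 0.819% with no count filter, 0.154% with the L code, 0.891% with the replicate block, 0.128% from numbered titles, 0% from male, 0.0517% from female and 0% from L6 libraries alone, 5.11% from the 2 groups alone, and 0.677% (without WT control replicate 1P) to 2.51% (without KI ASK1i replicate 5) with 1 left out. The difference between genotypes gave 0%, against 0.107% with DESeq2, 0.0134% with limma-voom and up to 0.0201% with 1 left out. No member was called for the inhibitor or for that difference under any alternative.

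The values that changed sign were not called in either setting. From female libraries alone these were Hnf4a between KI ASK1i and WT ASK1i livers (0.0143); for the inhibitor in KI livers Cebpa (0.59) and Foxa3 (-0.0286); in WT livers Hnf4a (0.0541), Cebpb (0.10), Foxa1 (0.0153) and Foxa3 (0.26); and for the difference between genotypes Cebpa (0.24), Foxa2 (0.76) and Foxa3 (-0.29). From male libraries alone they were Foxa1 (-0.0331) and Foxa2 (-0.21) in KI and Cebpa (-0.0297) and Nr1i2 (-0.0773) in WT livers. From numbered titles alone they were Hnf4a (0.0301) and Foxa3 (0.19) in WT livers and Foxa3 (-0.15) for the difference. With the L code they were Foxa2 on control chow (0.0957) and Foxa1 in KI livers (-0.0508). From L6 libraries alone they were Cebpa (-0.0639) and Foxa2 (-0.0247) in WT livers. Without covariates they were Foxa1 (-0.0028) and Foxa2 (-0.0332) in KI livers, and with limma-voom Nr1i2 in WT livers (-0.000266). With 1 library left out, Foxa2 on control chow ranged from -0.28 to 0.0288. In KI livers the inhibitor's values then ranged from -0.21 to 0.0566 for Cebpa, -0.12 to 0.20 for Cebpd, -0.00822 to 0.26 for Foxa1, -0.14 to 0.15 for Foxa2 and -0.0415 to 0.13 for Foxa3. In WT livers Nr1i2 ranged from -0.0819 to 0.0952, and the difference between genotypes for Foxa2 from -0.29 to 0.0113.

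Of 37 pairs of same-numbered libraries, 14 had a correlation over 0.1 (median 0.02), and 4 of 30 libraries correlated best with their own number. The spread of correlations between differently numbered libraries was not computed, so these values do not decide whether the numbers pair libraries. With the replicate block the Hnf4a call on control chow was lost (-0.35, edgeR adjusted p = 0.0586) and Cebpb was called there (0.72, adjusted p = 0.0241). For the inhibitor Cebpd (-0.0691), Foxa1 (-0.0463) and Foxa2 (-0.0511) in KI and Nr1i2 (-0.0726) in WT livers changed sign under the replicate block. The lowest count of a member in a library was 37, so counting error is largest for Cebpd in WT livers.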

Other observations

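Map3k5, which encodes ASK1, the kinase that GS-444217 inhibits, was lower in KI livers. It averaged 21.8 ± 2.80 CPM in KI control livers (SD, n = 5), against 38.0 ± 10.4 CPM in WT control livers (SD, n = 10), and every KI control library lay below every WT control library (edgeR log2 fold change -0.74 ± 0.17 SE, adjusted p = 0.000407). In KI ASK1i livers it averaged 25.2 ± 5.22 CPM (SD, n = 10), against 37.9 ± 9.72 CPM in WT ASK1i livers (SD, n = 8).

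Hnf4aos, the opposite-strand RNA at the Hnf4a gene, fell in KI livers on both diets. Its log2 fold change was -2.20 ± 0.37 on control chow (edgeR, SE, adjusted p = 1.12e-05), beside -0.42 for Hnf4a, and -1.56 ± 0.29 on the inhibitor diet (adjusted p = 2.77e-05), beside -0.14 for Hnf4a. Its counts were 17 to 238 per library. The difference between these 2 genes was not tested.

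By sex, Hnf4a averaged 696 CPM in 5 female and 556 CPM in 5 male KI ASK1i livers, with ranges of 591 to 906 and 406 to 721 CPM that overlapped. The highest female value was that of the library labelled KI ASK1i replicate 5. The other female libraries had 591 to 670 CPM, within the male range. No test of sex was made.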
